A study of Homo sapiens with 6 samples.

Results

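HnRNP, SR and U2 splicing factors are 60 human genes that were looked up by symbol in a table of 18236 genes measured in HCT116 cells. All 60 symbols were present, and 59 passed the filter of a mean of at least 10 normalized counts that left 14539 genes for testing. The gene that did not pass was HNRNPH2, listed at 2.21 to 8.33 normalized counts per sample. The members comprised 19 hnRNP and PTB proteins, 12 SR and TRA2 proteins, 11 U2 and branch site factors, 2 U1 proteins, 4 tri-snRNP proteins, 4 RBM proteins, 5 SR protein kinases, MBNL1 and RBFOX2, and the speckle protein SRRM2.

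Splicing is carried out by small nuclear ribonucleoproteins (snRNPs), of which U1 marks the 5′ splice site and U2 the branch site, while the U2AF proteins and SF1 read the 3′ end of the intron before U2 binds. The tri-snRNP of U4, U5 and U6 then joins and the catalytic core forms. SR proteins mostly bind exonic enhancers and favour inclusion of an exon, whereas hnRNP proteins coat the nascent transcript and often favour skipping, and SRPK and CLK kinases phosphorylate the arginine-serine repeats of SR proteins. In epithelial cancer cells such regulators help to decide between isoforms of adhesion and signalling genes, among them CD44.

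HCT116 is derived from a colorectal carcinoma, and its parent cells are heterozygous for a mutation of CTNNB1, which encodes β-catenin. The wild-type line studied (HCT116-CTNNB1 WT/-) kept the intact allele with the mutant allele disrupted, and the mutant line (HCT116-CTNNB1-/Δ45) kept the allele that lacks codon 45, which stabilizes β-catenin. Both lines were made from HCT116 cells, were grown in the same medium with 10% serum and received no treatment. Whether they also differ at other mutations was not tested. Each genotype is a single line with 3 replicates, so line and genotype cannot be told apart. Whether replicates came from separate cultures is not stated, so the p-values cover the spread of these samples only, which may be technical. Samples held 21.8 M to 57.9 M reads in genes, of which PTBP2, the tested member with the fewest, had 108 to 748 per sample.

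Before the results, the libraries labelled replicate 1 have to be set apart, because they did not sit with the others of their line. Across the genes tested, the SD of the log2 difference between wild-type and mutant replicate 1 was 0.51, against 0.67 and 0.74 from wild-type replicate 1 to the other wild-type samples and 0.84 and 0.85 from mutant replicate 1 to the other mutant samples. Replicates 2 and 3 of a line differed by 0.34 (wild-type) and 0.27 (mutant), and the lines differed by 1.42 and 1.46 in replicates 2 and 3. Of the members, 17 differed by at least 1 on the log2 scale between replicates 2 and 3 of the lines. On a scale with 0 at the wild-type and 1 at the mutant mean of those replicates, their median position was 0.36 in wild-type replicate 1 and 0.55 in mutant replicate 1, against 0.44 and 0.52 over 6625 genes chosen in the same way. The epithelial markers EPCAM, CDH1, KRT8, KRT18 and KRT19 were present in every sample, with EPCAM and CDH1 called lower in mutant cells. KRT18 and CDX2 (202 to 672 normalized counts) had log2 fold changes of 0.49 and 1.06 (limma adjusted p = 0.147 and 0.0681, and 2.45e-05 and 6.1e-06 without replicate 1 of both lines), while CDX1 and CEACAM5 were at 0 to 5.00 normalized counts. The leukocyte markers PTPRC, CD3E and LYZ and the endothelial marker PECAM1 were at 0 to 4.43, although CD68 was at 676 to 5234 and COL1A1 at 1735 to 4371. The summed level of the 10 epithelial markers was 57969 to 60923 in wild-type and 45265 to 50332 in mutant samples, and that of the 5 leukocyte markers 3342 to 5271 and 726 to 1296. Nearly all of the leukocyte sum was CD68, which was called lower in mutant cells (log2 fold change -2.41, limma adjusted p = 0.0147). Any part of these markers or of replicate 1 in the results below was not tested beyond the fits without replicate 1.

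Promoter sequences are shown for the 3 members called below that hold an E-box and for SRSF3, the called SR gene with a TATA motif, so that the motifs counted below can be seen in place. RefSeq gave 250 bases upstream of the start of transcription for 53 of the 60 members, 19 of them among the 20 called below, on GRCh38.p14. Capitals mark the motifs found on either strand, which do not overlap here: the E-box CACGTG, the ETS motif CCGGAAGT (ACTTCCGG on the other strand) and the TATA motif TATAAA. The windows lie on chromosome 4 for HNRNPD (82373992 to 82374241, minus strand), on chromosome 19 for HNRNPM (8444725 to 8444974, plus strand), on chromosome 2 for HNRNPA3 (177212544 to 177212793, plus strand) and on chromosome 6 for SRSF3 (36594112 to 36594361, plus strand).
HNRNPD: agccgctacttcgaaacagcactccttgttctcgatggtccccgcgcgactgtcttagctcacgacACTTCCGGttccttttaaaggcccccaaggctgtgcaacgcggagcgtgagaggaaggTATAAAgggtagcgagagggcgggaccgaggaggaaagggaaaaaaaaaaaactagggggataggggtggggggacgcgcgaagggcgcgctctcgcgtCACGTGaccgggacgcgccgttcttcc
HNRNPM: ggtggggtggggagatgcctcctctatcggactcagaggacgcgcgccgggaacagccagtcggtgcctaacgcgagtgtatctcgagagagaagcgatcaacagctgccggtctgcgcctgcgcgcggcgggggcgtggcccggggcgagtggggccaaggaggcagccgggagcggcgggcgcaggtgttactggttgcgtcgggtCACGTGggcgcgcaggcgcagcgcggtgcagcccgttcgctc
HNRNPA3: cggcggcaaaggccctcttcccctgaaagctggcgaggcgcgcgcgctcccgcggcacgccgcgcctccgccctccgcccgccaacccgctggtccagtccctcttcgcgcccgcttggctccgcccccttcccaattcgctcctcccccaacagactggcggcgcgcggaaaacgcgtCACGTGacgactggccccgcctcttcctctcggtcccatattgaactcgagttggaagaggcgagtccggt
SRSF3: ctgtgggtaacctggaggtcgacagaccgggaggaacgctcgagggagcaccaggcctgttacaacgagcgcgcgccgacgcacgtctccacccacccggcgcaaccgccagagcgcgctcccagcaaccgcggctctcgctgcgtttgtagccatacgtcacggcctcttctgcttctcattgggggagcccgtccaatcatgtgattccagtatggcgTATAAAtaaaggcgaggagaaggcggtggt

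The E-box, read by MYC and USF proteins among others, was found in 8 of the 53 member promoters (15.1%) and in 8.75% of the 10913 promoters of genes tested (6.49% of all 27305 promoters). The 8 were HNRNPA3, HNRNPD, HNRNPH2, HNRNPH3, HNRNPM, SF3B1, CLK2 and CLK4, of which 3 were called below. ETS motifs stood in 10 member promoters (18.9%), against 6.82% of the promoters of genes tested and 3.64% of all promoters. Of these 10, 7 belong to the class of U2 and branch site factors (U2AF2, SF3A1, SF3A2, SF3A3, SF3B2, SF3B4 and SNRPA1), and 1 of the 10, HNRNPD, was called below. TATA motifs stood in 5 (HNRNPAB, HNRNPC, HNRNPD, SRSF3 and SRSF11), or 9.43%, against 5.54% and 11.1%. The motif CTTTGAT, bound by the TCF/LEF proteins that recruit β-catenin to DNA, was in 0 of 53 member promoters, 1.26% of those of genes tested and 2.28% of all promoters. The cyclic AMP response element TGACGTCA was also in 0 of 53, against 2.79% of the promoters of genes tested and 1.77% of all promoters. These motifs were searched as exact letters, and a missing match says only that those letters are not in the window. Median GC content was 64.8% in the member promoters and in those of all genes tested.

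In mutant cells 20 of the 59 members tested were higher and 0 were lower (limma with Benjamini-Hochberg adjustment over all genes, adjusted p under 0.05). This is 33.9% of the members, where 17.3% of all genes tested were called higher and 10.0% lower. At an unadjusted p under 0.05, 22 members were higher (SF3A3 and SF3B3 in addition) and 3 lower (HNRNPC, SF1 and SNRNP70). The share of all genes at an unadjusted p is not given, here or below, so such counts cannot be set against a background. The called genes were 12 hnRNP and PTB proteins, 5 SR and TRA2 proteins, U2AF1, the kinase SRPK1 and MBNL1, and their adjusted p lay between 0.0315 and 0.047. The median log2 fold change (mutant over wild-type, with a pseudocount of 1) was 0.28 over the members and 0.24 over all genes tested, so the members as a whole sat 0.03 above all genes, and the hnRNP proteins and some SR proteins stood above the rest of them. In bulk RNA, fewer cells with a transcript and less of it per cell cannot be told apart.

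**Figure D1:**
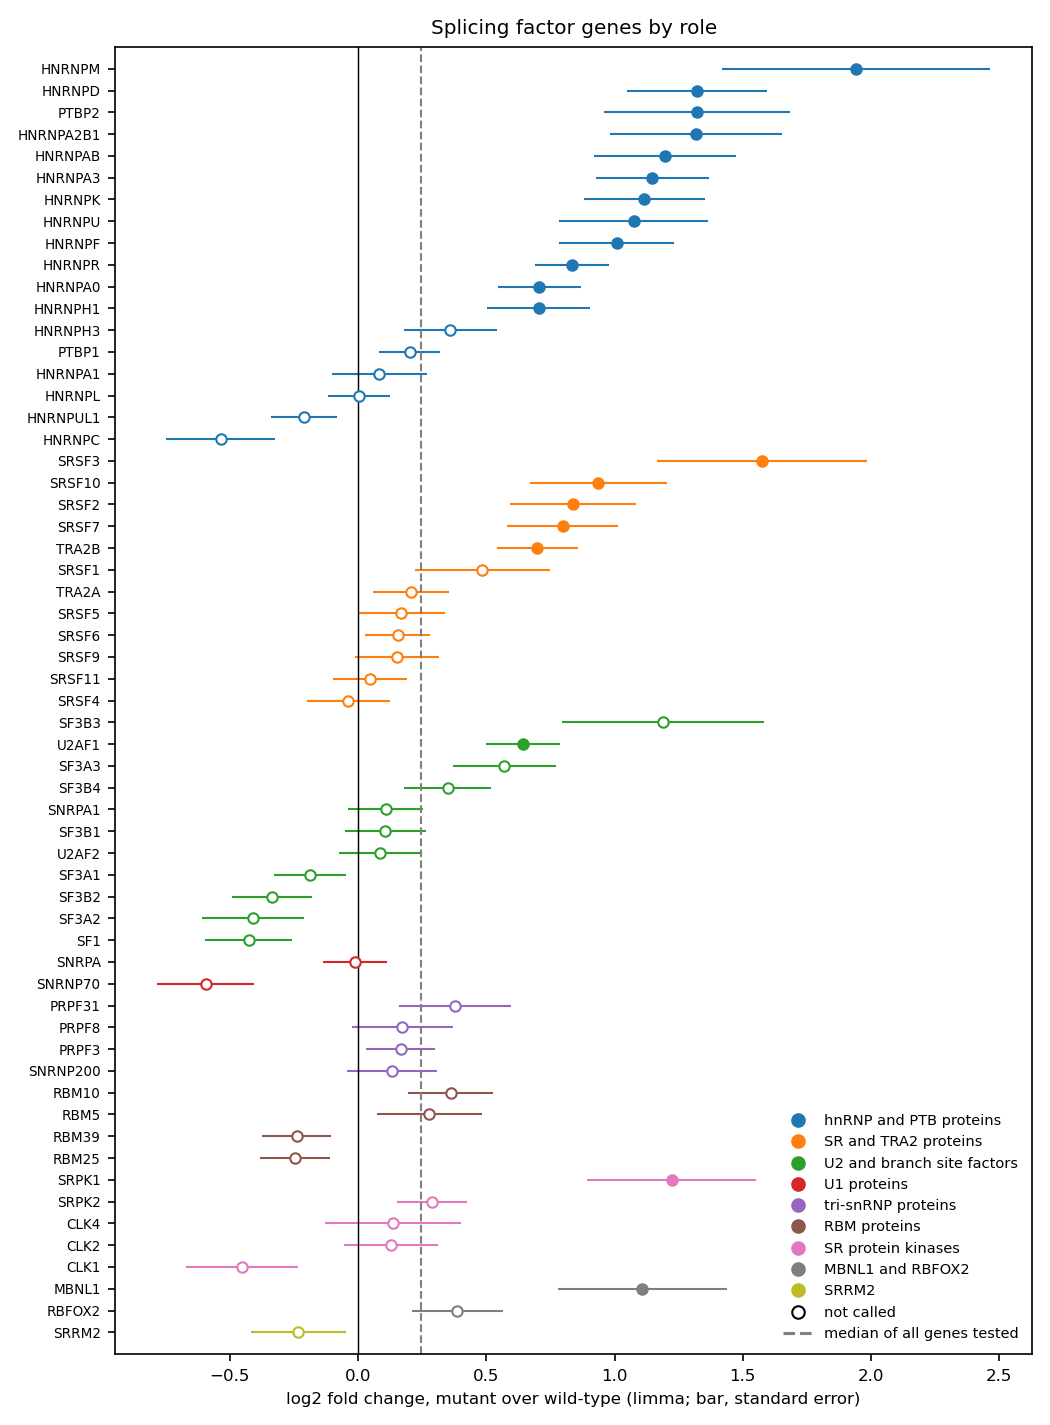
Log2 fold change of each of the 59 members tested (mutant over wild-type, limma), with bars for the standard error, filled points for genes with an adjusted p under 0.05, colours for the role and a dashed line at the median of all genes tested (0.24). The 12 called hnRNP and PTB genes lie between 0.70 and 1.94, while the U2 and branch site factors spread from -0.43 to 1.19.

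The scaling of the samples bears on this count. In the deposited scaling the median of all genes was 0.24, and with TMM or DESeq2 factors it was 0.01. With values rescaled by TMM factors limma called 17 members higher and 1 lower (SNRNP70), against 14.9% and 14.5% of all genes. edgeR with TMM factors, meant by edgeR below, called 13 higher and 0 lower (background 12.3% and 11.2%), with 20 higher and 9 lower at an unadjusted p under 0.05. With upper-quartile factors it called 16 higher and 0 lower (background 11.2% and 9.92%), with 21 higher and 7 lower at an unadjusted p. DESeq2 called 20 higher and 5 lower (HNRNPC, RBM25, SF1, SF3A2 and SNRNP70; background 21.7% and 20.6%), with SF3B3 called in place of U2AF1 among the higher ones. Without replicate 1 of both lines, limma called 39 members higher and 12 lower, all 20 among the higher ones, but 53.1% of all genes were then called higher and 29.1% lower. With TMM rescaling in addition the members gave 25 higher (42.4%) and 24 lower (40.7%), which is near the 41.2% and 40.3% of all genes. The 20 genes were among the 25. In the same samples edgeR called 26 higher and 23 lower (background 41.8% and 40.4%) and DESeq2 24 and 22 (37.7% and 37.9%). When any 1 of the samples numbered 2 or 3 was left out, limma and edgeR called 0 members. At an unadjusted p under 0.05, 20 or 21 were higher in limma and 13 to 17 in edgeR, without a share of all genes to read them against. Nearly all calls were lost in these fits, since of all genes limma called 0 without either wild-type sample and 5 or 6 higher and 15 or 17 lower without either mutant one, and edgeR 0 and then 12 higher and 18 lower. DESeq2 then called 6 and 8 without the wild-type samples 2 and 3 (background 6.91% and 7.92% higher) and 8 and 6 without the mutant ones (7.26% and 7.60%). Without wild-type replicate 1 limma called 21 higher and 5 lower (background 34.1% and 15.3%), with HNRNPU and SRSF2 lost, and without mutant replicate 1 it called 28 higher and 6 lower (background 35.6% and 21.2%).

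The 3 mutant values lay above the 3 wild-type values for 24 members and below them for 4 (HNRNPUL1, RBM25, RBM39 and SNRNP70), or 40.7% and 6.78%, where all genes gave 26.6% and 19.1%. With TMM rescaling these counts were 20 and 3 (background 23.3% and 22.8%). Without replicate 1 they were 42 and 12, against 57.9% and 33.5% of all genes.

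**Figure D2:**
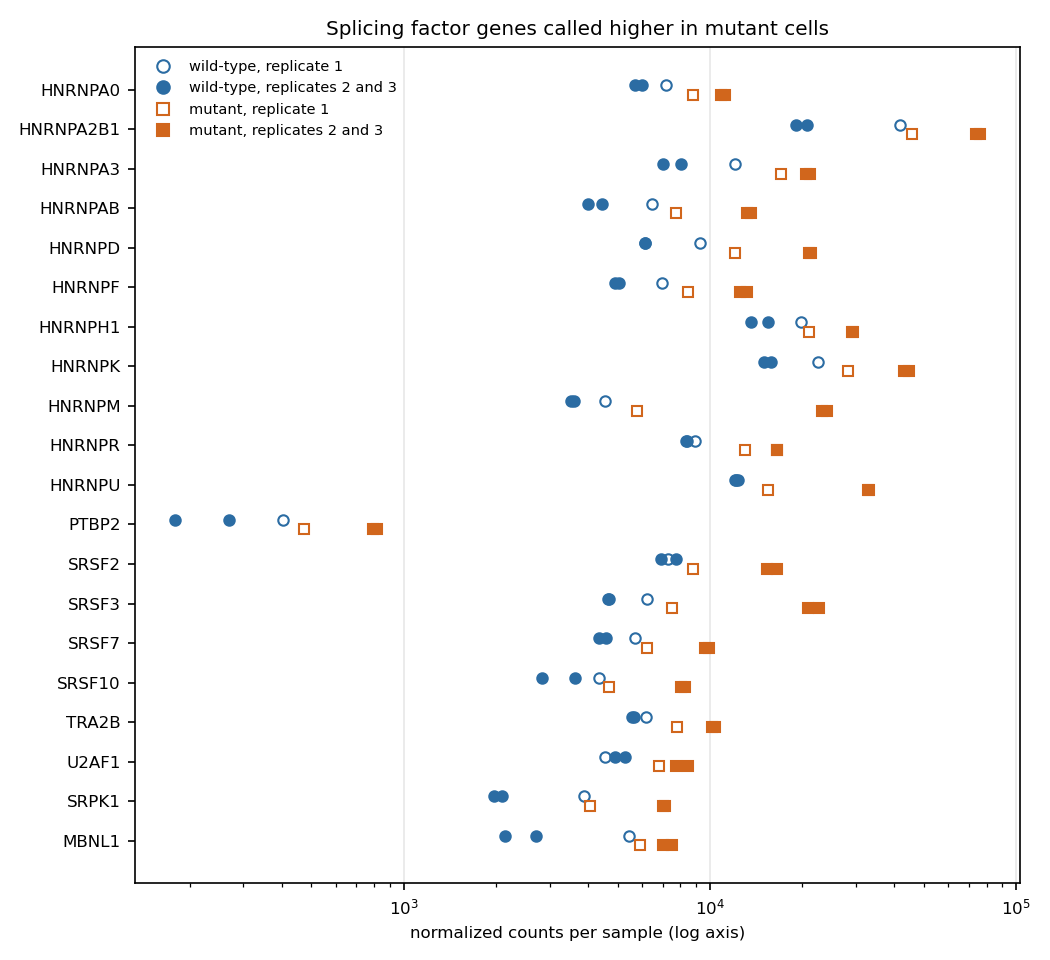
Normalized counts in each of the 6 samples (log axis) for the 20 members called higher in mutant cells, with circles for wild-type and squares for mutant samples and open symbols for replicate 1. In every row the 3 squares lie to the right of the 3 circles, and the open square lies closer to the circles than the filled squares do.

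The hnRNP and PTB proteins carried most of the difference, with 12 of 18 tested higher and 0 lower, against 17.3% and 10.0% of all genes. Their median log2 fold change was 0.92, which is 0.68 above the median of all genes (0.69 on TMM-rescaled values, whose median over all genes was 0.01). Without replicate 1 of both lines limma called 14 higher and 2 lower (53.1% and 29.1% of all genes). With TMM rescaling in addition to leaving out replicate 1, it called 12 higher and 5 lower (41.2% and 40.3% of all genes). The class took 0.762%, 0.689% and 0.702% of the reads in genes in wild-type samples and 0.865%, 1.10% and 1.13% in mutant samples. Its share was thus higher in every mutant sample, and least so in replicate 1.

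HNRNPM, which binds GU-rich sequences and whose targets include exons of CD44, lies on chromosome 19 from 8509651 to 8553998 (GRCh37). It gave 4537, 3595 and 3521 normalized counts in wild-type and 5790.0, 23295 and 24182 in mutant cells (replicates 1, 2 and 3, the order used throughout). Mutant replicates 2 and 3 were far above all other samples, and mutant replicate 1 was above wild-type replicate 1 by 0.35 on the log2 scale. The log2 fold change was 1.94 (standard error [SE] 0.52, limma adjusted p = 0.0428), the largest of all members in this fit, and it lay between 1.59 and 2.62 with each sample left out.

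HNRNPD, also known as AUF1, binds AU-rich elements and promotes the decay of many mRNAs. Its normalized counts were 9254, 6115 and 6157 in wild-type and 12076, 21046 and 21404 in mutant cells. The groups did not overlap, and the log2 fold change was 1.32 (SE 0.27, limma adjusted p = 0.0404, edgeR 0.037). HNRNPA2B1, which packages transcripts and sorts RNAs for transport, was measured with 41650.3, 20802 and 19143 counts in wild-type and 45687, 73644 and 76208 in mutant cells. Here the replicate 1 values of the lines were close to each other and lay between the other samples (log2 fold change 1.32, SE 0.34, limma adjusted p = 0.0416). HNRNPA2B1 overlaps CBX3 and NFE2L3 on the opposite strand, and the strand setting of the counting is not given in the sources used here, so their reads may not be fully separated.

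HNRNPAB, HNRNPA3 and HNRNPA0 belong to the same A/B-type family. HNRNPA3 rose from 9052 ± 2664 (SD, n = 3) to 19600.3 ± 2258 (SD, n = 3), and HNRNPAB from 4973 ± 1325 to 11518 ± 3279. Their log2 fold changes were 1.15 and 1.20 (adjusted p = 0.0376 and 0.0404 from limma). HNRNPA0 changed less, at 0.71 (SE 0.16, limma adjusted p = 0.0404). HNRNPA3 has 16 named pseudogenes and overlaps NFE2L2 on the opposite strand, and HNRNPAB overlaps PHYKPL. HNRNPA1, the best known member of the family and usually among the most abundant, was listed at only 793 to 1098 normalized counts and 142 per kb of exon, against 3662 per kb for HNRNPA2B1. It has 74 named pseudogenes, among which reads could have been split or discarded, so its level and its log2 fold change of 0.08 (limma adjusted p = 0.729) are uncertain.

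HNRNPK binds C-rich stretches of RNA and DNA. It was measured at 22476, 14991 and 15826 counts in wild-type and 28175, 43105 and 44719.5 in mutant cells, again without overlap (log2 fold change 1.12, SE 0.24, limma adjusted p = 0.0404). HNRNPF and HNRNPH1 bind runs of G, often in introns beside the exon they regulate. HNRNPF rose by 1.01 (SE 0.22) and HNRNPH1 by 0.70 (SE 0.20) on the log2 scale, with adjusted p = 0.0404 and 0.0441 from limma. HNRNPH1 was not called by edgeR (adjusted p = 0.0691) or on TMM-rescaled values (adjusted p = 0.0624). Their relative HNRNPH3 gave 7189, 7701 and 7366 counts in wild-type and 7392, 10579 and 11039 in mutant cells, and was not called (limma adjusted p = 0.143).

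HNRNPU, or scaffold attachment factor A, binds both chromatin and nuclear RNA. Its wild-type values were the closest of those of the called genes relative to their mean, at 12131, 12324 and 12037 counts, while the mutant samples gave 15499, 32871 and 32994. The log2 fold change was 1.07 (SE 0.29, limma adjusted p = 0.0429), and the call was lost without wild-type replicate 1. HNRNPR, a close relative of SYNCRIP, had the smallest adjusted p of the members, with 8929, 8431 and 8330.0 counts against 13036, 16498 and 16567. All 3 mutant samples were well above the wild-type range (log2 fold change 0.84, SE 0.14, limma adjusted p = 0.0315).

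PTBP1 and PTBP2 bind pyrimidine tracts and repress exons, PTBP2 mainly in neurons. PTBP2 was low, with 403, 269.6 and 179.9 counts in wild-type and 472, 819 and 794 in mutant cells, and it rose by 1.32 on the log2 scale (SE 0.36, limma adjusted p = 0.0433). Its level per kb of exon was 24.3 against 2685 for PTBP1, which gave 18196, 18803 and 19338 counts in wild-type and 20598, 22400.0 and 21812 in mutant cells. The PTBP1 groups did not overlap either, but its log2 fold change of 0.20 did not pass the test (limma adjusted p = 0.198) and was -0.03 after TMM rescaling.

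HNRNPC was the most abundant member, with 8779.8 normalized counts per kb of exon, and the hnRNP protein with the most negative value. It binds U-tracts and keeps U2AF from cryptic exons in Alu elements. Its values were 61718, 77849 and 87008 in wild-type and 66796, 43328 and 47487 in mutant cells. Mutant replicate 1 lay above wild-type replicate 1, while mutant replicates 2 and 3 lay below every wild-type sample. The log2 fold change of -0.53 did not pass limma (adjusted p = 0.083) or edgeR (adjusted p = 0.0794), but passed DESeq2 (adjusted p = 0.038). Without replicate 1 of both lines it was -0.86 (limma adjusted p = 4.22e-05). HNRNPUL1 (-0.21, adjusted p = 0.217) and HNRNPL (0.01, adjusted p = 0.975, both from limma) did not pass either.

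SR and TRA2 proteins had 5 of 12 members higher (SRSF2, SRSF3, SRSF7, SRSF10 and TRA2B) and 0 lower, against 17.3% and 10.0% of all genes. Their median log2 fold change was 0.35, or 0.10 above all genes. edgeR with TMM factors called only SRSF3 of them (background 12.3% higher) and DESeq2 the same number as limma, 5 (background 21.7% higher). Without replicate 1 of both lines limma called 10 higher and 1 lower (53.1% and 29.1% of all genes). With TMM rescaling in addition it called 6 higher and 2 lower (41.2% and 40.3% of all genes). The class took 0.249%, 0.2504% and 0.225% of the reads in genes in wild-type and 0.266%, 0.375% and 0.376% in mutant samples. The median log2 difference of the class was 0.13 between the replicate 1 samples and 0.42 and 0.64 between those numbered 2 and 3, where the medians of all genes were -0.05, 0.39 and 0.39.

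SRSF3, the smallest SR protein, acts in splicing and in the export and 3′ end choice of mRNAs, and lies on chromosome 6 from 36562130 to 36573377 (GRCh37). Its values were 6207, 4658 and 4679.6 in wild-type and 7541, 20944 and 22686 in mutant cells, so that mutant replicates 2 and 3 were again far from the rest. It had the largest log2 fold change of the class in limma, at 1.58 (SE 0.41, adjusted p = 0.0419), and passed in edgeR (adjusted p = 0.0399). SRSF7, its nearest relative, rose by 0.80 (SE 0.22, limma adjusted p = 0.0429) and did not pass in edgeR (adjusted p = 0.0513).

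SRSF2, known as SC35 and a component of nuclear speckles, gave 7295, 7746 and 6898 counts in wild-type and 8781, 16519 and 15329 in mutant cells. Its call (log2 fold change 0.84, limma adjusted p = 0.046) was lost after TMM rescaling (adjusted p = 0.069) and without wild-type replicate 1, and the gene overlaps MFSD11 on the opposite strand. SRSF10, a repressor of splicing in mitosis and heat shock when it loses its phosphates, rose by 0.94 (SE 0.27, limma adjusted p = 0.0445). TRA2B, which binds GAA-rich enhancers, rose by 0.70 (SE 0.16, limma adjusted p = 0.0404) from 5796 ± 347 to 9473 ± 1446 counts (SD, n = 3). In edgeR neither passed, with adjusted p = 0.05 for SRSF10, just over the threshold before rounding, and 0.0539 for TRA2B.

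The other 7 genes of the class lay between -0.04 for SRSF4 and 0.49 for SRSF1 in limma. SRSF1, the founding SR protein, gave 10942, 14715 and 11761 counts in wild-type and 11507, 21552 and 20933 in mutant cells. The groups overlapped through mutant replicate 1 (limma adjusted p = 0.171). With all 6 samples SRSF3 was therefore called by limma, edgeR and DESeq2. With upper-quartile factors in place of TMM factors, edgeR also called SRSF7, SRSF10 and TRA2B, but not SRSF2.

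**Figure D3:**
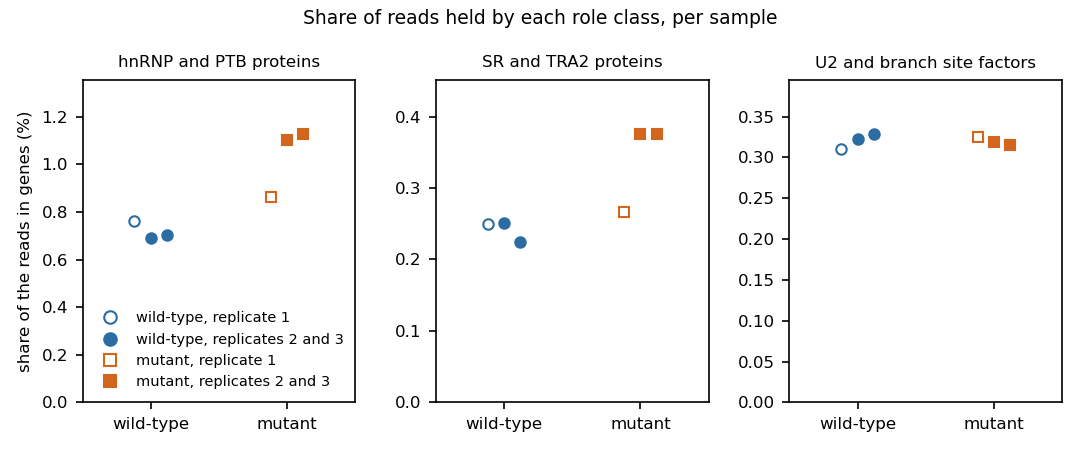
Share of the reads in genes (percent, axis from 0) held by the hnRNP and PTB, the SR and TRA2, and the U2 and branch site classes in each sample, with open symbols for replicate 1. The hnRNP share is 0.689% to 0.762% in wild-type and 0.865% to 1.13% in mutant samples, whereas the U2 shares of the lines overlap at 0.311% to 0.329% and 0.315% to 0.325%.

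U2 and branch site factors had 1 of 11 members higher and 0 lower, against 17.3% and 10.0% of all genes. Their median log2 fold change was 0.11, which is -0.14 relative to all genes. Their share of the reads overlapped between the lines, at 0.311%, 0.322% and 0.329% in wild-type and 0.325%, 0.319% and 0.315% in mutant cells. The called gene was U2AF1, the small U2AF subunit, which reads the AG at the end of the intron (chromosome 21, 44513066 to 44527680, GRCh37). It gave 4544, 4893 and 5299 counts in wild-type and 6809, 7772 and 8474 in mutant cells. Here replicate 1 lay beside the other samples of its line. The log2 fold change of 0.64 (SE 0.14, limma adjusted p = 0.0404) shrank to 0.40 in edgeR (adjusted p = 0.105), 0.39 in DESeq2 (adjusted p = 0.11) and 0.41 after TMM rescaling (adjusted p = 0.0891).

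The subunits of SF3A and SF3B, which hold U2 to the branch site, did not move together. SF3B3 had the largest value, 1.19 (limma adjusted p = 0.0567, DESeq2 0.0411), with 8899, 3226 and 3612 counts in wild-type and 8008, 12387 and 12404 in mutant cells, and wild-type replicate 1 above mutant replicate 1. SF3A3 was next at 0.57 (adjusted p = 0.0651) and its groups did not overlap. SF3A2 (-0.41), SF3B2 (-0.33) and SF3A1 (-0.19) had negative values, none called by limma. SF3B1, the subunit that is mutated in several blood cancers, gave 30461, 24548 and 23713 counts in wild-type and 32056, 26550.3 and 26009 in mutant cells, with a log2 fold change of 0.11 (limma adjusted p = 0.597). The branch site binding protein SF1 gave 15449, 20340.0 and 21251 counts in wild-type and 15709.5, 13615 and 12875 in mutant cells. Mutant replicate 1 sat at the level of wild-type replicate 1, and the log2 fold change of -0.43 did not pass limma (adjusted p = 0.083) but passed DESeq2 (-0.69, adjusted p = 0.0318). Without replicate 1, limma called 4 of the 11 higher and 4 lower (53.1% and 29.1% of all genes). With TMM rescaling in addition to leaving out replicate 1, it called 3 higher and 7 lower (41.2% and 40.3% of all genes).

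Of the U1 proteins, SNRNP70 (U1-70K), which contacts SR proteins at the 5′ splice site, gave 14561, 16839 and 19504 counts in wild-type and 13922, 9526 and 10492 in mutant cells. All mutant values lay below the wild-type values, and the log2 fold change of -0.59 (SE 0.19) just missed the threshold (limma adjusted p = 0.0525). It passed in DESeq2 (adjusted p = 0.0168) and after TMM rescaling (adjusted p = 0.0467), and not in edgeR (adjusted p = 0.0546). SNRPA, the other U1 protein, was at 4431 to 4659 counts in wild-type and 4458 to 4673 in mutant samples.

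None of the 8 tri-snRNP and RBM proteins passed in limma, where 0 had an unadjusted p under 0.05, or in edgeR, where RBM25 and RBM39 had one. PRPF31, needed to join U4 and U6 to U5, had the largest tri-snRNP value, 0.38 (adjusted p = 0.192), with 2693, 2609 and 2641 counts in wild-type and 2474, 3951 and 4175 in mutant cells. SNRNP200, the helicase that unwinds U4 from U6, had a log2 fold change of 0.13 (limma adjusted p = 0.553) which turned to -0.10 after TMM rescaling, so no direction can be given. RBM10, which promotes exon skipping, had 0.36 (adjusted p = 0.116), RBM5 0.28, and RBM39 and RBM25 -0.24 and -0.25, the last called lower by DESeq2 with all 6 samples. SRRM2, a scaffold of nuclear speckles, gave 40280.5, 29606 and 28645 counts in wild-type and 32209, 26876 and 24389 in mutant cells, with overlapping groups (log2 fold change -0.23, limma adjusted p = 0.329).

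Among the SR protein kinases only SRPK1 was called. It phosphorylates SR proteins in the cytoplasm before they enter the nucleus, and gave 3875, 2089 and 1965 counts in wild-type and 4059, 7108 and 7009 in mutant cells. Its replicate 1 values were nearly equal between the lines, and the log2 fold change was 1.22 (SE 0.33, limma adjusted p = 0.0428, edgeR 0.0433). SRPK2 (0.29), CLK2 (0.13) and CLK4 (0.14) were not called, nor was CLK1, a nuclear kinase, at -0.45 (limma adjusted p = 0.132). MBNL1, which promotes adult splicing patterns and is sequestered by repeat RNA in myotonic dystrophy, gave 5432, 2695 and 2148 counts in wild-type and 5927, 7545 and 7052 in mutant cells. It rose by 1.11 (SE 0.33, limma adjusted p = 0.047) and was not called by edgeR (adjusted p = 0.0634). RBFOX2, with 6984, 4971 and 5269 against 8461, 7131 and 6793 counts, had overlapping groups and a log2 fold change of 0.39 (limma adjusted p = 0.118).

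Ratios within a sample do not depend on the scaling between samples, and 7 pairs of related or opposing factors were compared in this way. The smallest p that an exact permutation test of 3 against 3 samples can give is 0.1, so no pair could pass, and the adjusted p over the 7 pairs was 0.233 for 6 of them. The log2 ratio of U2AF1 to U2AF2 was -0.83, -1.01 and -0.96 in wild-type and -0.35, -0.44 and -0.35 in mutant cells. It was higher in each mutant sample, by 0.56 on average against an SD of 0.10 in wild-type and 0.05 in mutant cells, and replicate 1 did not stand apart (exact two-sided permutation p = 0.1). The ratio of PTBP2 to PTBP1 was -5.49, -6.12 and -6.74 in wild-type and -5.45, -4.77 and -4.78 in mutant cells, a difference of 1.12 (exact p = 0.1) in which the replicate 1 samples were close to each other.

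The ratio of SRPK2 to SRPK1 fell by 0.93 between the means (exact p = 0.2), with the replicate 1 values of the lines next to each other at -0.45 and -0.38. TRA2A to TRA2B differed by -0.49 and CLK1 to CLK2 by -0.58 (exact p = 0.2 each), and HNRNPA1 to SRSF1 by -0.40 (exact p = 0.4), all with overlapping groups. HNRNPH2 to HNRNPH1 differed by -1.64 without overlap (exact p = 0.1), but rests on fewer than 10 counts of HNRNPH2, which also shares its locus with a readthrough gene from RPL36A.

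**Figure D4:**
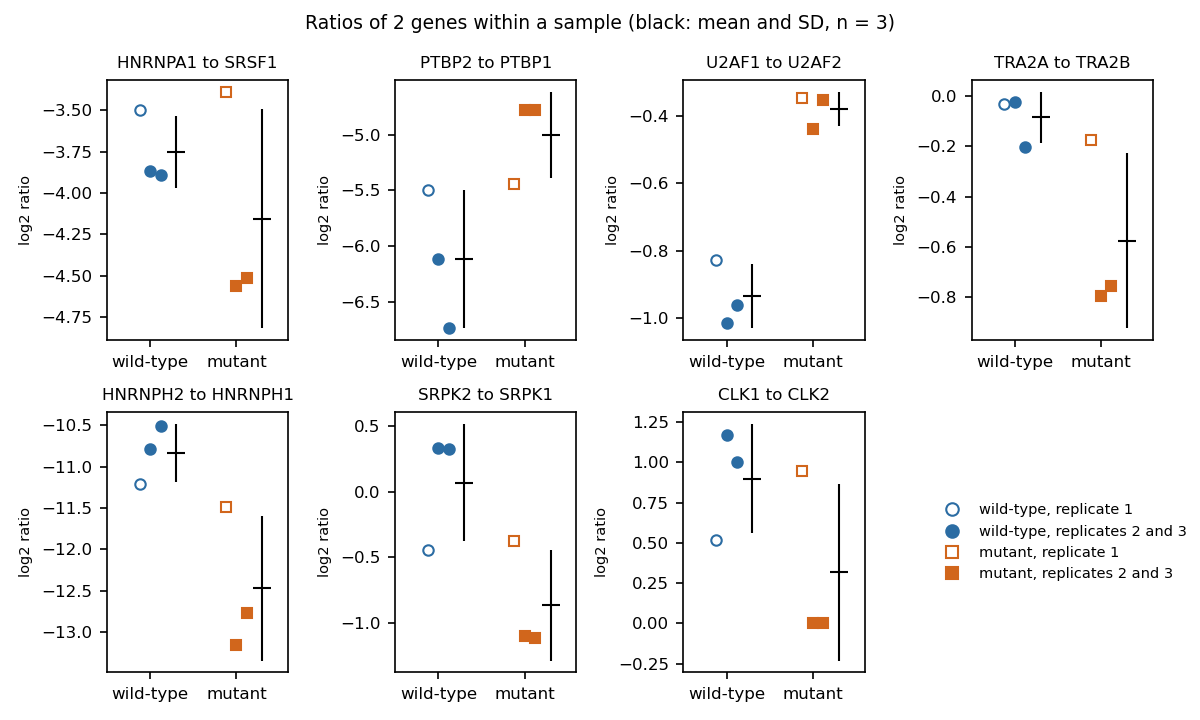
Log2 ratio of 2 members within each sample for 7 pairs, with open symbols for replicate 1 and black bars for the mean and SD of the 3 samples of a line. U2AF1 to U2AF2 separates the lines with replicate 1 beside the other samples (-0.93 ± 0.10 in wild-type and -0.38 ± 0.05 in mutant cells), whereas the replicate 1 points of the SRPK and PTBP pairs lie close to each other.

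Some members lie in stretches where the neighbouring genes moved as well. The median log2 fold change of the genes tested within 2 Mb on either side was 1.07 around HNRNPA2B1 (26 genes, 9 called higher), 1.02 around HNRNPK (9 genes, 4 higher), 0.88 around SRSF7 (22 genes, 11 higher) and 0.60 around SRSF2 (73 genes, 35 higher). It was 0.65 around PTBP2 (8 genes, 1 higher) and 0.63 around HNRNPA3 (17 genes, 6 higher). Over all genes the median was 0.24, with 17.3% called higher and 10.0% lower. SRSF1 and TRA2A, which were not called, lie among neighbours with medians of 0.93 and 0.97. SNRNP70 lies among neighbours that were lower, with a median of -0.63 and 51 of 131 genes called lower. By contrast, the neighbours of HNRNPM had a median of -0.16, and those of SRSF3, HNRNPD, SRPK1, HNRNPAB and TRA2B 0.26, 0.22, 0.07, 0.09 and 0.11. Within 5 Mb the median around HNRNPK was 0.29 and those around HNRNPA2B1 and SRSF7 were 0.74 and 0.82.

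**Figure D5:**
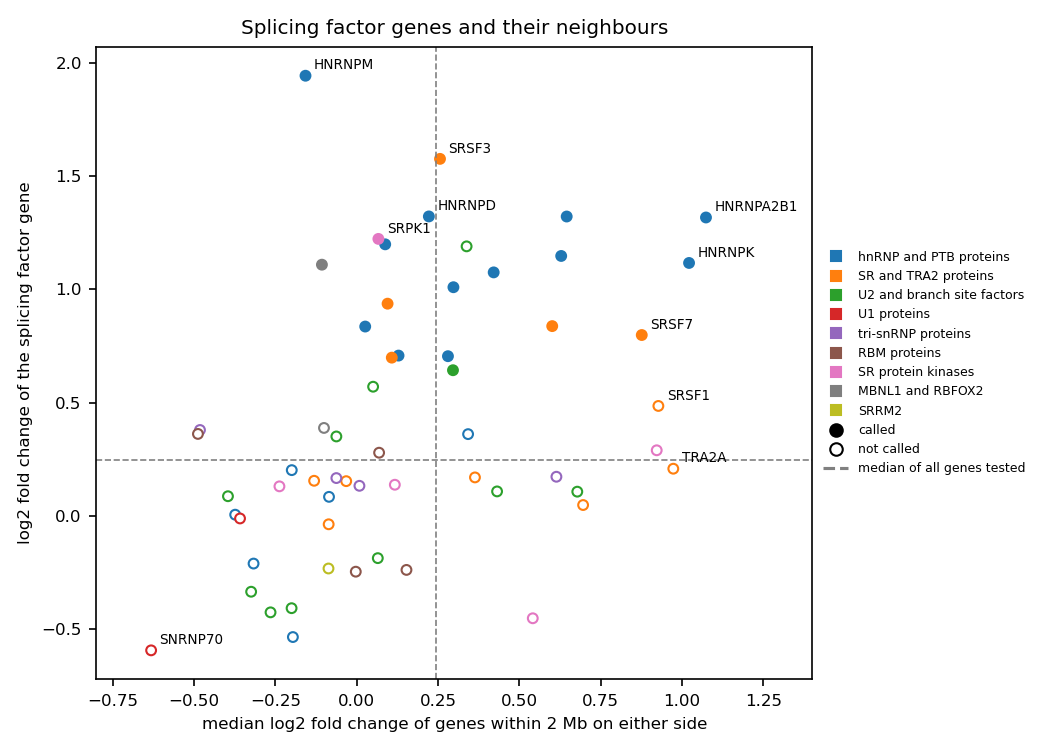
Log2 fold change of each member tested against the median of the genes tested within 2 Mb on either side of it, with filled points for called members, colours for the role and dashed lines at the median of all genes (0.24). HNRNPM (1.94) lies over neighbours at -0.16, while HNRNPA2B1 (1.32) lies over neighbours at 1.07 and SNRNP70 (-0.59) over neighbours at -0.63.

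Other genes of the splicing machinery, from 6 lists with 104 genes tested, were higher in 20 cases (19.2%) and lower in 8 (7.69%), close to the 17.3% and 10.0% of all genes. Of 12 other hnRNP proteins 7 were higher and 0 lower, with a median of 0.61. RBMX, an X-linked hnRNP G protein, rose by 1.58 (limma adjusted p = 0.0326), from 5435, 2969 and 2908 counts in wild-type to 8388, 12064 and 12478 in mutant cells. HNRPLL and CIRBP rose by 1.04 and 1.17. The other 33 snRNP proteins gave 5 higher and 2 lower with a median of 0.18, among them DDX23 at 0.98, U2SURP at 1.69 and SNRPD2, a core Sm protein, at -0.64. Among 23 late spliceosome and exon junction genes, whose median was -0.10, the helicase DHX15 rose by 0.57 and XAB2 fell by 0.91.

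Of 17 other splicing regulators 4 were higher and 3 lower. QKI, which binds introns and promotes formation of circular RNAs, rose by 1.54 (SE 0.18, limma adjusted p = 0.0132), from 1134, 1142 and 899 counts in wild-type to 2683, 3421 and 3111 in mutant cells. The lines were far apart for QKI, and each replicate 1 sample lay on the side of its line. KHDRBS1 rose by 0.73. ESRP1, an epithelial splicing regulator picked out after its values were seen, fell by 0.73 (limma adjusted p = 0.041), with 5472, 4287 and 4047 counts in wild-type and 3139.7, 2594 and 2533 in mutant cells. ESRP2, the other ESRP gene of the list, went the other way with a log2 fold change of 0.57 (limma adjusted p = 0.199). Without replicate 1 of both lines ESRP2 was at 1.06 (limma adjusted p = 1.02e-05). RBFOX3 fell by 1.91 from 73.6 to 122 counts in wild-type to 20.2 to 39.8 in mutant cells. In nonsense-mediated decay, which removes SR transcripts that include poison exons, SMG8 rose by 1.67 and SMG5 fell by 0.72 of 10 genes tested. Of 9 other kinases and arginine methylation genes PRPF4B rose by 0.91 and CLK3 fell by 1.13. Counts per gene do not separate isoforms, so productive transcripts and those with poison exons were counted together.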

How the data were processed

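RNA of 3 wild-type and 3 mutant HCT116 samples was sequenced by the authors as paired ends after ribosomal RNA removal (the labels also say polyA RNA), mapped to hg19 with TopHat2 2.1.0 and counted with HTSeq. CASAVA 1.8.2 is also named in the processing notes. The deposited signal values are these counts divided by 1 factor per sample. DESeq is named in the processing notes, but the factors left nearly equal totals (35.8 M to 37.3 M normalized counts per sample). DESeq2 factors fitted to the same reads gave another scaling, with a median log2 fold change over all genes of 0.01 in place of 0.24. In every sample 100% of values were whole multiples of 1 read within 0.001, and these reads entered the count tests. The log2 ratio and p-value that the authors deposited were not used.

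The 14539 genes whose mean reached 10 normalized counts entered limma 3.58.1 (eBayes with trend, R 4.3.3) as log2 values after adding 1. The call was a p under 0.05 after Benjamini-Hochberg adjustment over them all. Alternatives were edgeR 4.0.16 and DESeq2 1.42.0, other scaling, filters and pseudocounts, a replicate block and the removal of samples. The removal of samples with edgeR or DESeq2, and of replicate 1 with TMM rescaling, was added after seeing the data. The fits were also run on simulated counts in which all replicates of a line were alike. Those runs cannot show how the fits behave with the replicate 1 samples or the scaling seen here.

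Members and lists were chosen with earlier results of these data known. Full values are given for called members, for the member of each role class with the highest level or the smallest p, and for up to 3 called genes per other list. Values of other members were added after they had been seen. Gene positions are from GENCODE 44 on GRCh37, with 1081 of 18236 symbols unmatched.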

Additional observations from a re-analysis of the deposited data

How the results depend on the processing

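Other filters on low values and other pseudocounts changed none of the calls of the 28 members given in full. Changes with the test or the scaling were as follows. With edgeR 13 members and 12 genes of the other lists were higher (main fit of limma 20 and 20), the median log2 fold change was 0.056 over members, 0.12 over SR and TRA2 and -0.13 over U2 and branch site factors (main 0.28, 0.35 and 0.11), and with upper-quartile factors 12 list genes were higher and the U2 median was -0.081. DESeq2 called 5 members and 19 list genes lower (main 0 and 8), with medians of 0.048, 0.11 and -0.14, and TMM rescaling called 1 lower, with medians of 0.046, 0.11 and -0.13. SNRNP200 turned to -0.083, -0.091, -0.10 and -0.039 with edgeR, DESeq2, TMM rescaling and upper-quartile factors.

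Without replicate 1 of both lines limma called 39 members higher and 12 lower, with 42 and 12 not overlapping, and 56 and 34 list genes. Of all genes 53.1% were then called higher and 29.1% lower, and with edgeR, DESeq2 and rescaled limma 41.8%, 37.7% and 41.2% higher and 40.4%, 37.9% and 40.3% lower. With edgeR, DESeq2 and rescaled limma, added after seeing the data, members lower were 23, 22 and 24, list genes higher 41, 37 and 40 and lower 46, 47 and 46, member medians -0.00058, -0.026 and -0.0082, U2 medians -0.24, -0.27 and -0.25, the SR median in DESeq2 0.13, and SNRNP200 -0.19, -0.22 and -0.21.

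With each sample left out, over limma, edgeR and DESeq2, members called ranged from 0 to 28 higher and 0 to 12 lower, list genes from 0 to 45 and 0 to 37, members below without overlap from 4 to 11, the member median from -0.0091 to 0.31, the SR median from 0.026 to 0.55, the U2 median from -0.26 to 0.19, SNRNP200 from -0.27 to 0.28 and RBFOX2 from -0.0038 to 0.54. Without wild-type replicate 2 or 3 or mutant replicate 2 or 3, limma and edgeR called 0 members, and of all genes at most 6 higher and 17 lower (limma) or 12 higher and 18 lower (edgeR), so the loss is not particular to the members. The cause was not tested.

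Same-numbered samples deviated in opposite directions (correlations of -0.53, -0.43 and -0.31). So did unlike-numbered samples 2 and 3 of the 2 lines (-0.42 and -0.40), while replicate 1 samples gave 0.40 to 0.52 with those numbered 2 or 3 of the other line. Deviations within a line sum to 0, so these values are not separate and cannot decide on a pairing. The numbers were not taken to pair the samples, although the samples numbered 1 were nearer to each other than to their lines. With a replicate block limma called 0 members and 0 list genes in either direction, as for all genes. At an unadjusted p under 0.05, 21 members were higher, without a share of all genes beside them. The exact p of the ratios could not go below 0.25 with the block.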
